A study of Mus musculus with 12 samples.

Results

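The nuclear genes that encode the subunits of mitochondrial complexes I to V were followed in cultured mouse aortic smooth muscle cells under 4 conditions. Members were taken by gene symbol: names starting with Nduf, Uqcr or Atp5, the Cox4i1 and Cox5 to Cox8 subunit names, Sdha to Sdhd, and Cyc1. Pseudogene symbols (12 containing -ps) and the paralogs Ndufa4l2 and Cox4i2 were left out. The names matched 95 of 25745 listed genes. They comprise 40 genes of complex I, 4 of complex II, 9 of complex III, 17 of complex IV (Ndufa4 included), 17 of complex V, and 8 assembly factors of complex I that carry the Ndufaf prefix.

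The cells were primary vascular smooth muscle cells grown out of aortic explants of wild-type C57BL/6J mice aged 5 to 6 weeks, with adventitia and endothelium taken off, and used at passages 5 to 8. Each of the 4 groups had 3 RNA-seq libraries. Klotho cells were kept in calcium medium and given a lentivirus carrying Klotho. Vector cells had calcium medium and the empty lentivirus, calcification cells had calcium medium, and control cells had basal medium. Calcium medium contained 3.0 mM sodium phosphate and was applied for 7 days. The labels do not say whether calcification and control cells received any virus, so the vector and control groups differ in medium and in at least the stated virus. Nor do they tie the 3 libraries of a group to different mice or dishes. The p-values thus reflect how much these libraries varied, and that variation may be technical. The study asked how calcium medium and αKlotho, an anti-ageing protein with a soluble form, alter expression in these cells.

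Complexes I to IV form the respiratory chain of the inner mitochondrial membrane. Electrons from NADH enter at complex I and those from succinate at complex II, pass through complex III and cytochrome c, and reach oxygen at complex IV. Complexes I, III and IV pump protons, and complex V, the ATP synthase, uses the proton gradient to make ATP. Most subunits are nuclear genes, but the mitochondrial genome encodes core subunits of every complex except complex II. The transcription factors NRF1, GABPA (also called NRF2) and YY1 are known to act at many of the nuclear promoters. Smooth muscle cells make ATP by both glycolysis and respiration.

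Promoter sequences were available for 76 of the 95 members (RefSeq, GRCm38.p6). Windows from 250 bases before to 50 bases after the gene start were searched on both strands for 3 core motifs. The NRF1 core GCGCATGC was in 12 of the 76 promoters (15.8%), against 5.91% of 8089 promoters of tested genes and 2.80% of all 27025 promoters. The YY1 core AAGATGGC was in 10 (13.2%), against 5.17% and 2.88%. The GABPA core CCGGAAG was in 18 (23.7%), against 19.6% and 9.12%. At least 1 of the 3 was in 34 member promoters (44.7%), against 28.1% and 13.8%. A match is a description of letters and not a binding site. The 250 bases before the start are printed for Cox6a1, the most abundant member, and for 3 members whose calls are described below, Sdhb, Atp5g2 and Ndufs3. Each runs 5′ to 3′ on the gene's strand, with NRF1 and GABPA matches of either strand in capitals. Cox6a1 (chr5:115348959-115349208, minus strand) holds a match to each of these motifs. Sdhb (chr4:140961021-140961270, plus strand) and Atp5g2 (chr15:102671048-102671297, minus strand) hold the NRF1 core, and Ndufs3 (chr2:90904722-90904971, minus strand) the GABPA core. Sdhb also has a GABPA match in the searched window, outside the bases printed here. In Cox6a1 and Atp5g2 the NRF1 matches on the plus and minus strands overlap, giving a palindrome.
Cox6a1: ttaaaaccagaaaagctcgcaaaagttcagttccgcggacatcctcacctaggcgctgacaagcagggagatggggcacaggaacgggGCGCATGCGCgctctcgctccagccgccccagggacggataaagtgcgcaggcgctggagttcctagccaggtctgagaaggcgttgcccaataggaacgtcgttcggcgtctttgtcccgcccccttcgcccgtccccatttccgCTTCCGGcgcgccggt
Sdhb: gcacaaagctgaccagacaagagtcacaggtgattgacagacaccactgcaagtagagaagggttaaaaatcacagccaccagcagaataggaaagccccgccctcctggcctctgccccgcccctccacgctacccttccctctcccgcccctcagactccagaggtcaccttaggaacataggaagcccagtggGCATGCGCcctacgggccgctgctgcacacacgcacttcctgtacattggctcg
Atp5g2: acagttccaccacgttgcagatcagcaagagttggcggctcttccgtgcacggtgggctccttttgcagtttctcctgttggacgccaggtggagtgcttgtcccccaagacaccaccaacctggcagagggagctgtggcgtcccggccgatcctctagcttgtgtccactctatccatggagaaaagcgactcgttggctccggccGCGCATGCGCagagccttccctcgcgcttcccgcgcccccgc
Ndufs3: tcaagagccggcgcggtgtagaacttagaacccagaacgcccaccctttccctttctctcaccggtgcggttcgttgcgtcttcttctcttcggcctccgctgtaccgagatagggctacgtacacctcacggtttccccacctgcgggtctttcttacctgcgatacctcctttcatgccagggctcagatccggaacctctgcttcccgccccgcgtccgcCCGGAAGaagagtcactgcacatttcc

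Values are FPKM, fragments per kilobase of gene scaled to the library's depth. The 12 libraries held an implied 16644000 to 20015000 fragments each. The Klotho gene itself, Kl, checks the labels only in part: it was listed at 0 in 11 of 12 libraries and at 0.00536 FPKM, the worth of 1 fragment, in replicate 3 of the libraries labelled Klotho. Smooth muscle markers, 6 of 6 tested, had summed levels of 152 to 1180 FPKM in the libraries labelled Klotho, 264 to 834 in vector, 143 to 1024 in calcification and 194 to 1073 in control libraries. Replicate 1 was lowest in Acta2, the smooth muscle actin gene, in every group, at 138 FPKM in the libraries labelled Klotho, 245 in vector, 128 in calcification and 178 in control, whereas the other 8 libraries had 580.1 to 1081 FPKM. Replicate 1 of the libraries labelled Klotho and of calcification also had the lowest median of the members in their groups, given below. In vector and control, replicate 1 instead had the highest, 0.30 and -0.02. The part of this in the results was not tested. Adventitial fibroblast markers, 4 of 5 tested, summed to 911 to 1602 FPKM in the libraries labelled Klotho, 1017 to 1273 in vector, 623 to 1227 in calcification and 472 to 686 in control libraries. Mesothelial markers, 3 of 4 tested, summed to 33.5 to 99.5, 38.5 to 112, 33.4 to 115 and 5.82 to 19.3 FPKM in the same order. Macrophage markers, 3 of 5 tested, summed to 30.55 to 71.5, 30.8 to 80.4, 26.4 to 68.3 and 24.7 to 101.7 FPKM in that order. Endothelial markers, 1 of 5 tested, summed to 1.56 to 4.37, 1.03 to 5.905, 1.61 to 5.05 and 1.45 to 7.33 FPKM. Pecam1, Kdr, Tek and Cldn5 of endothelium and Ptprc and Adgre1 of macrophages averaged under 1 FPKM. Mesothelial sums in every group in calcium medium lay above those in control libraries. Fibroblast sums of calcification and control libraries overlapped, while those of the libraries labelled Klotho and of vector libraries lay above control. The part of these markers in the results below was not tested. In bulk RNA fewer cells of a type and less RNA per cell cannot be told apart.

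Genes averaging at least 1 FPKM over the 12 libraries were tested, 10758 in all, and 91 of the 95 members were among them. The 4 others were Ndufb2 at 0.627 FPKM, Cox7a1 at 0.415, Cox7b2 at 0.0609 and Ndufb11b at 0.00855. Ndufb2 is a complex I subunit whose annotated gene overlaps Braf and has 5628 bases of exons. The part of that annotation in its low FPKM was not tested. Just inside the filter stood Cox6c2 at 1.25 FPKM, with 0 to 13 fragments a library, and Cox6a2 at 1.75 FPKM, with 4 to 37. The tested members had a median level of 33.1 FPKM, against 6.77 over all tested genes. By complex the median was 26.9 FPKM for I, 44.6 for II, 55.5 for III, 58.6 for IV and 38.6 for V, and 5.26 for the assembly factors.

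**Figure D1:**
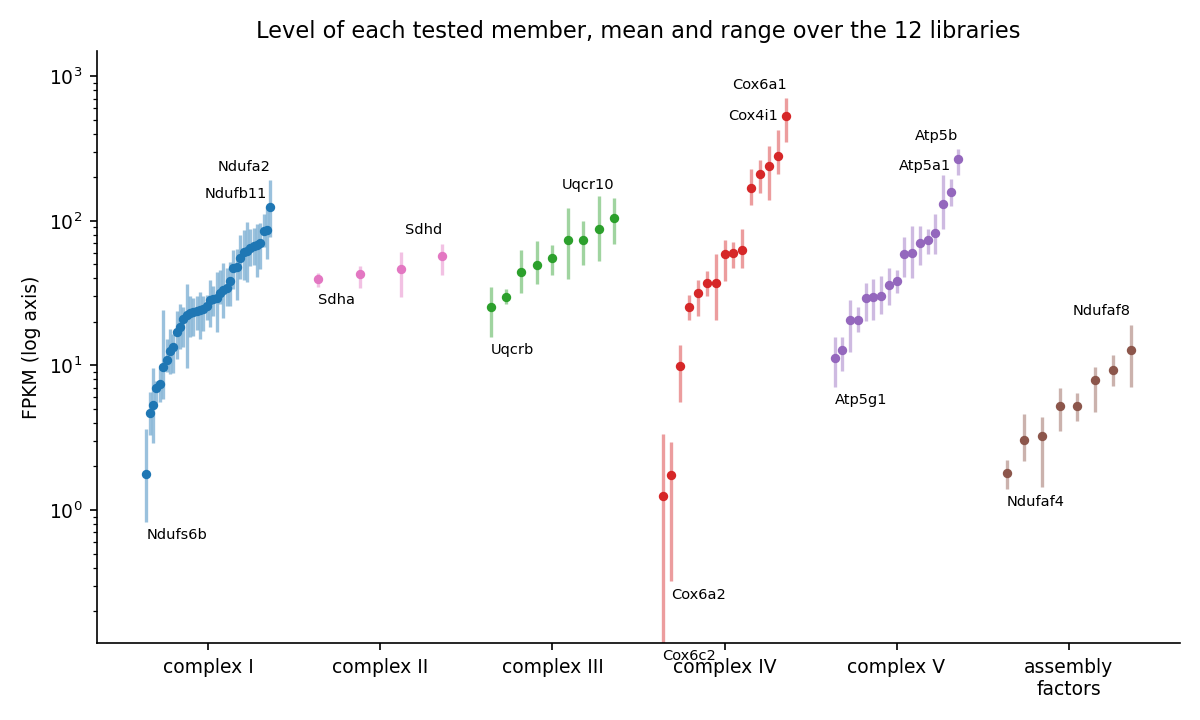
Mean level of each of the 91 tested members (points, FPKM on a log axis) with its range over the 12 libraries (bars), grouped by complex. Subunits of complexes III and IV have the highest medians, 55.5 and 58.6 FPKM, the Ndufaf assembly factors the lowest, 5.26 FPKM, and the bar of Cox6c2 runs to the foot of the axis because it was 0 in 1 library.

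Complex IV held the most abundant member, Cox6a1, at 528 FPKM, followed by Cox4i1 at 281 and Cox8a at 240. Complex V was led by the catalytic head subunits Atp5b (beta) at 265 FPKM and Atp5a1 (alpha) at 159. Among complex I genes the accessory subunits Ndufa2 (124 FPKM) and Ndufb11 (85.7) were highest, and Uqcr10 (105) and Uqcrq (87.4) led complex III. Of the assembly factors Ndufaf8 (12.8 FPKM) and Ndufaf3 (9.24) were highest and Ndufaf4 (1.8) lowest. The 4 subunits of complex II lay close together, between Sdha at 39.8 and Sdhd at 57.3 FPKM. Where a subunit has tissue isoforms, the widely expressed gene was the higher one. Cox6a1 had 528 FPKM and its heart and skeletal muscle counterpart Cox6a2 had 1.75. Cox7a2 had 58.6 and Cox7a2l, which is known for its part in supercomplexes, 169, whereas the heart and skeletal muscle gene Cox7a1 had 0.415. Cox6b1 stood at 212 FPKM against 9.85 for Cox6b2, known from testis, and Cox7b at 36.9 against 0.0609 for Cox7b2. Atp5g1, Atp5g2 and Atp5g3 encode the same mature c subunit of the membrane ring, and had 11.2, 59.1 and 73.2 FPKM.

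FPKM depends on the gene length used. The table's lengths match the union of all annotated exons, which for several short subunits is far longer than the main transcript. On the length of the principal transcript Atp5l would stand at 151 FPKM in place of 12.7, Ndufb7 at 91.05 in place of 12.5, Cox6c at 122 in place of 25.3, Ndufa7 at 230.1 in place of 66.5 and Atp5e at 251 in place of 60.1. Atp5g2 and Atp5g3 would stand at 135 and 221, and Atp5g1 at 11.7. Where a gene had several principal transcripts the longest was used. It was 4715 bases for Atp5g1, against 731 for Atp5g2 and 723 for Atp5g3, so the low value of Atp5g1 rests on that length. Levels between genes are therefore uncertain, while a gene's ratio between libraries is unaffected. Members are short genes, with a median exon length of 1587 bases, against 4116 over all tested genes. In addition 33 of the 95 overlap another annotated gene, 30 of them on the other strand. No strand setting is given, so reads of such pairs cannot be told apart.

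The members moved together between libraries. Each library's median deviation of the 91 members from their own means, on the log2 scale, was -0.22, -0.02 and 0.23 in replicates 1 to 3 of the libraries labelled Klotho, 0.30, 0.29 and 0.16 in vector, -0.32, -0.18 and 0.21 in calcification, and -0.02, -0.19 and -0.21 in control. The 3 vector libraries were all above zero, the 3 control libraries all below, and the other 2 groups spanned both sides. In replicate 3 of the libraries labelled Klotho 82 of 91 members were above their mean and in replicate 1 there were 13. In calcification 76 were above it in replicate 3, and 6 and 13 in replicates 1 and 2. Replicate 3 held the highest value of its group for 82 members in the libraries labelled Klotho and for 80 in calcification. A single library stood apart for Ndufa12, an accessory complex I subunit picked out after its values were seen, with 24.2 FPKM in replicate 3 of calcification and 5.9 to 10.7 FPKM in the other 11 libraries. The members' share of total FPKM was 1.32% to 1.76% in the libraries labelled Klotho, 1.77% to 1.89% in vector, 1.26% to 1.82% in calcification and 1.44% to 1.55% in control.

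**Figure D2:**
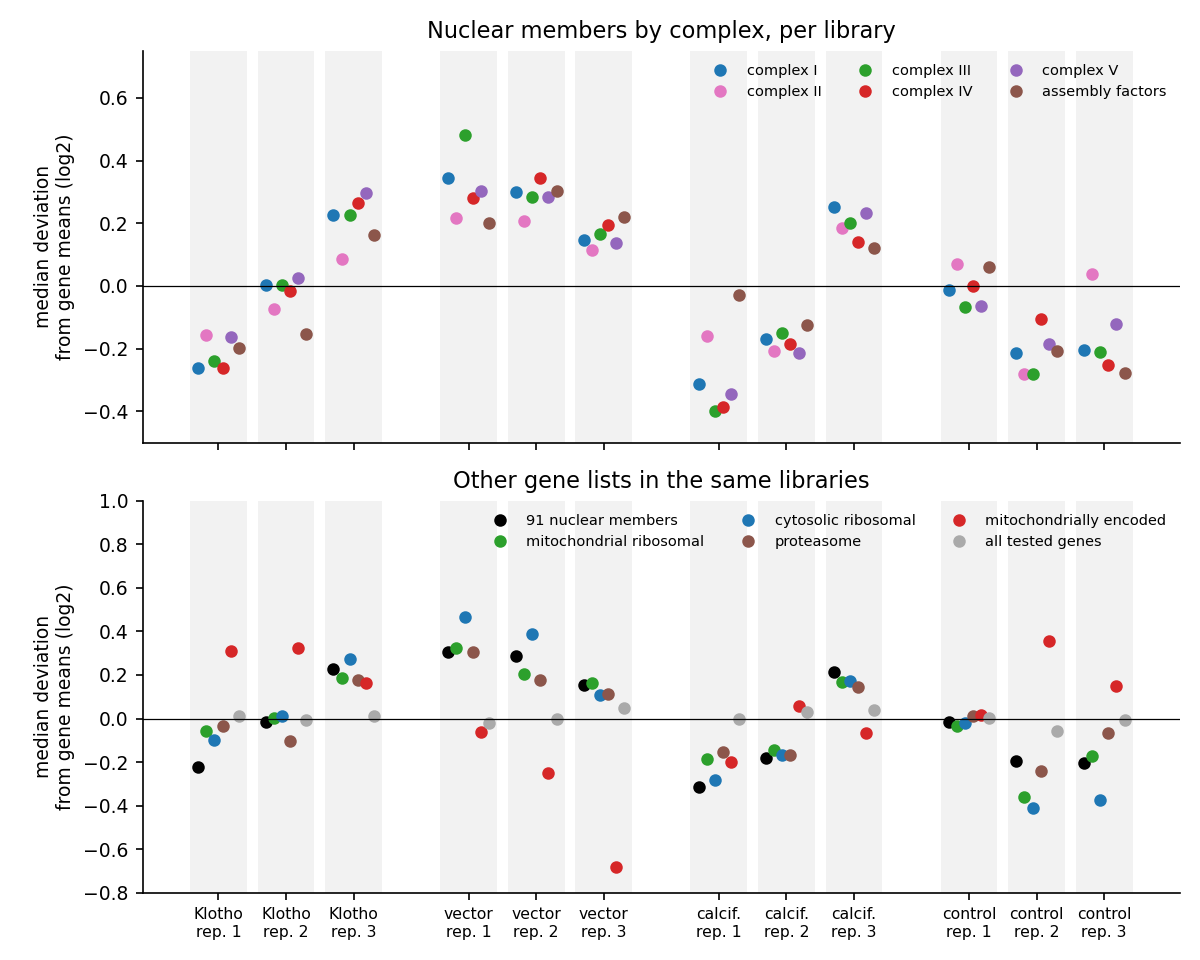
Median log2 deviation from the genes' own means in each of the 12 libraries. Top, complexes I to V and the assembly factors. Bottom, all 91 members beside mitochondrial ribosomal, cytosolic ribosomal (taken by symbol, as described in the text), proteasome, mitochondrially encoded and all tested genes. Every complex is above zero in the 3 vector libraries and in replicate 3 of Klotho and calcification, and the members' median spans 0.16 to 0.30 in the vector libraries but -0.32 to 0.21 in the calcification libraries.

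These shifts moved with gene length. The slope of a library's log2 deviation on log2 exon length over all tested genes, negative where short genes are high, was 0.04, 0.03 and -0.06 in the libraries labelled Klotho, -0.13, -0.11 and -0.05 in vector, 0.08, 0.05 and -0.04 in calcification and 0.01, 0.11 and 0.08 in control. Every library with a negative slope had a positive member median, and every one with a positive slope a negative median. For that reason each comparison below is given also with the trends of fold change on GC content and length removed. Beyond that, the part of length in the members' values was not tested.

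Calcification against control asked what calcium medium did. No member passed limma at a Benjamini-Hochberg adjusted p under 0.05, where 0.706% of all tested genes did. limma-voom on recovered fragments also called 0, and 3 members had an unadjusted p under 0.05, a share of 3.30% against 11.5% of all genes. The members' median log2 fold change was 0.04, and that of all genes was 0.04 as well. By complex the median lay between -0.06 (complex II) and 0.08 (complex I and the assembly factors). It became -0.04 over the members with GC and length corrected. Single libraries moved it: it was -0.10, with 29 of 91 positive, without calcification replicate 3, and 0.14, 0.08 and 0.10 without calcification replicate 1, calcification replicate 2 and control replicate 1, and 0.002 and 0.02 without control replicates 2 and 3.

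The lowest adjusted p among the members was that of Cox6c2, a short relative of the complex IV subunit Cox6c, which rests on few fragments. It had 6, 13 and 4 fragments in calcification libraries, and 1, 1 and 0 in control libraries (log2 1.24 ± 0.28 SE on the log2(FPKM + 1) scale, limma adjusted p = 0.0854). Summed and scaled by depth, calcification was 11.2 times control, with an exact 95% counting interval of 2.77 to 97.9. With the replicate number as a block it was called (adjusted p = 0.0235), 1 member where 3.91% of all genes were called. Its 8, 5 and 7 fragments in vector libraries and 8, 4 and 4 in the libraries labelled Klotho were likewise above control, by 9.84 times (2.39 to 86.8) and 7.37 times (1.73 to 66.1). Reads of a gene so close to Cox6c may be shared with it, and the counting of such reads is not stated.

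Ndufb1, a small accessory subunit of the complex I membrane arm, had 17.8, 17.5 and 24.6 FPKM in calcification libraries and 30.4, 28.9 and 25.1 in control libraries (log2 -0.49 ± 0.19, limma adjusted p = 0.352). All 3 calcification libraries lay below all 3 control libraries. Only 3 members did so, and 4 lay wholly above, where 5.52% and 9.19% of all genes did. Of the other complexes the smallest p belonged to Sdhb (log2 0.42 ± 0.18, adjusted p = 0.416), Uqcrc1 (0.31), Atp5g2 (0.27) and the assembly factor Ndufaf2 (0.34), none of which passed.

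Vector against control, which differ in medium and virus together, was the only comparison in which members passed. There 10 of 91 rose and 0 fell of the tested members, where 7.44% of all tested genes rose and 7.98% fell. Their median log2 fold change was 0.40, against 0.04 over all genes, and 86 of 91 were positive. All 3 vector libraries were above all 3 control libraries for 57 members and below for 1, where 22.4% and 19.1% of all genes were so placed. At an unadjusted p under 0.05 there were 43 members, where 36.2% of all genes were. None of the 10 calls was kept when vector replicate 1, vector replicate 2, control replicate 2 or control replicate 3 was left out, fits that called 1.70%, 2.18%, 1.56% and 1.39% of all genes. limma-voom called 9 members higher, 8 of them among the 10, and over all genes 668 higher and 1019 lower, 15.7% of 10733. With upper-quartile scaling 6 members rose, and the split over all genes was 489 higher and 1184 lower, in place of 800 and 858. Members are more abundant than most tested genes. Among genes averaging at least 5 FPKM the median was 0.42 for 84 members and 0.11 over all 6384 genes. That fit called 13 members higher, and over all genes 731 higher and 561 lower.

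**Figure D3:**
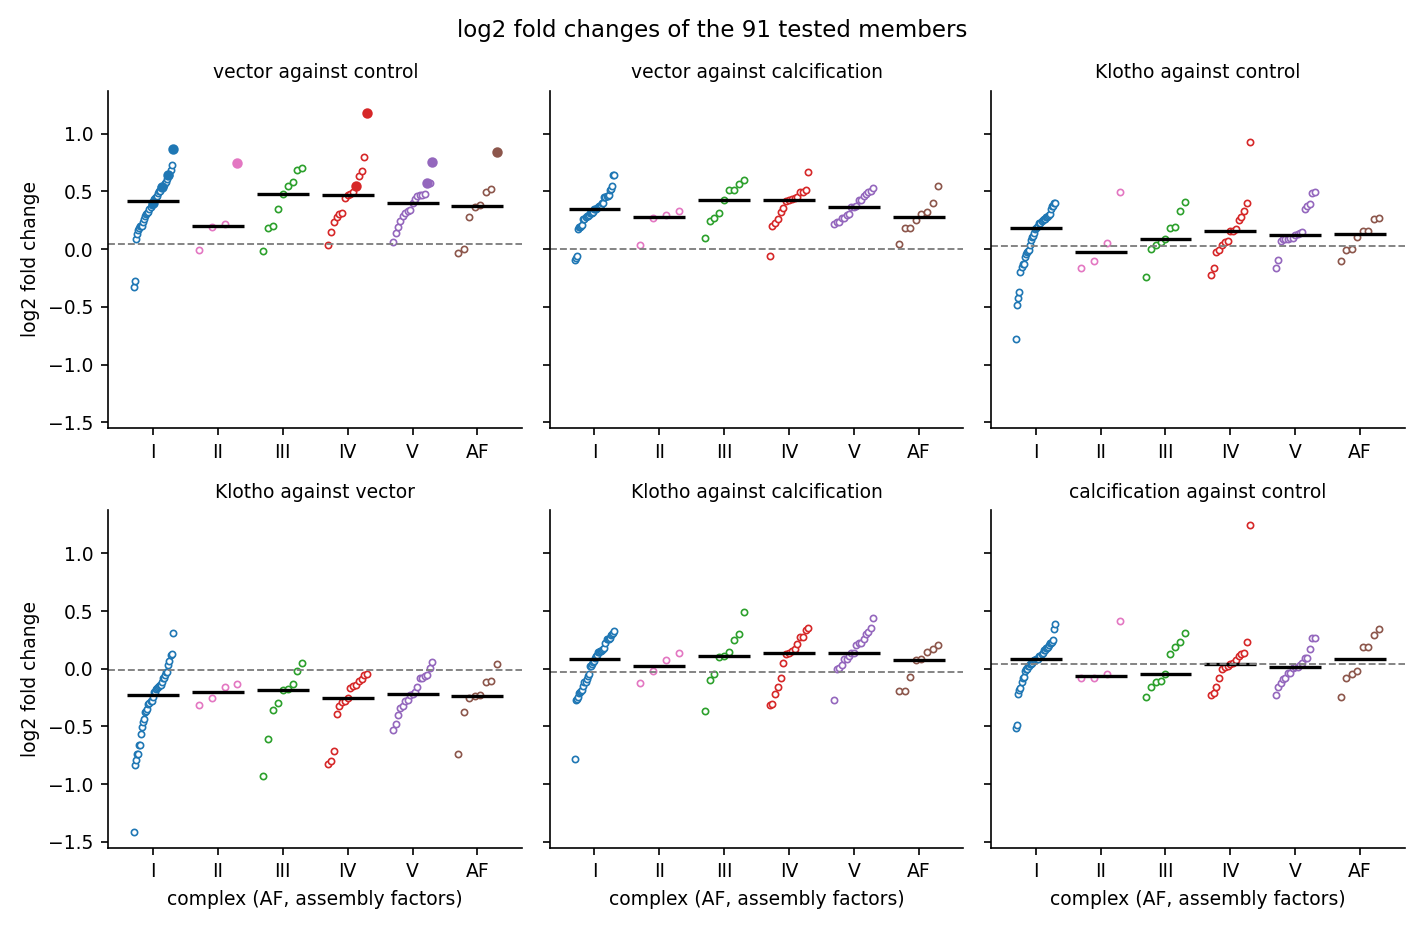
Log2 fold change of each tested member in the 6 comparisons, by complex. Filled points passed limma at an adjusted p under 0.05, black bars are the median of each complex and the dashed line is the median of all tested genes. Filled points appear only for vector against control, where the members' median is 0.40 against 0.04 for all genes.

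In complex I, 4 of 38 tested genes rose and the median was 0.42. Ndufs7, a core subunit that carries an iron-sulfur cluster (chromosome 10, 80084955 to 80092628 in the table's coordinates, whose build is not stated), had 47.4, 41.3 and 39.7 FPKM in vector libraries and 29.8, 25.6 and 25.9 in control libraries. The groups were well apart (log2 0.64 ± 0.16, limma adjusted p = 0.0292). Ndufs3, another core subunit of the peripheral arm, had 30.2, 28.0 and 28.9 FPKM in vector and 20.8, 18.9 and 19.3 in control libraries (log2 0.54 ± 0.16, adjusted p = 0.0414). The accessory subunit Ndufa2 had 191, 169 and 175 FPKM in vector and 109, 95.1 and 88.3 in control libraries (log2 0.87 ± 0.23, adjusted p = 0.0341). It is the largest change among the called members apart from Cox6c2. Ndufb5, an accessory subunit of the membrane arm, had 7.70, 9.54 and 8.29 FPKM in vector and 5.57, 6.77 and 6.24 in control libraries (log2 0.40 ± 0.12, adjusted p = 0.0424). Ndufa2, Ndufs3 and Ndufb5 overlap Tmco6, Kbtbd4 and Mrpl47, so their values may include reads of those genes. Core genes were taken as the 7 conserved complex I subunits on the NADH side, all of complex II, and Cyc1. The Rieske protein Uqcrfs1, Atp5a1 and Atp5b were added. These 15 genes had a median of 0.29 and the 68 others, assembly factors aside, 0.44. Their median exon lengths were 2239 and 1423 bases, and the part of length was not tested. The order varied: core and other medians were 0.05 and 0.04 in calcification against control and 0.25 and 0.12 in Klotho against control. They were 0.29 and 0.37 in vector against calcification, -0.20 and -0.24 in Klotho against vector, and 0.08 and 0.14 in Klotho against calcification.

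Complex II moved unevenly. Sdhb, its iron-sulfur subunit, lies on chromosome 4 at 140688514 to 140706504 in the table's coordinates. This position does not adjoin the promoter given above in GRCm38.p6, so the table's coordinates are on another build. Sdhb was at 60.9, 58.6 and 52.4 FPKM in vector libraries and 37.2, 29.7 and 34.6 in control libraries, with no overlap (log2 0.74 ± 0.18, limma adjusted p = 0.0292). Sdha, the flavoprotein that oxidises succinate, was at 38.6, 41.4 and 43.1 FPKM in vector and 42.5, 38.3 and 43.3 in control libraries, interleaved (log2 -0.01 ± 0.11, adjusted p = 0.954). Among the tested members Sdha had the smallest ratio of highest to lowest library, 1.24, where the median ratio was 1.94. The membrane anchors Sdhc and Sdhd stood at 0.19 (adjusted p = 0.347) and 0.22 (adjusted p = 0.421), and Sdhd overlapped, with 67.4, 67.8 and 61.2 FPKM in vector and 69.5, 42.3 and 60.1 in control libraries. The difference between Sdhb and the other subunits was not tested.

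None of the 9 complex III genes rose, although their median of 0.48 was the highest of the 5 complexes. Uqcrc1, a subunit on the matrix side of the complex, had 73.0, 51.5 and 50.4 FPKM in vector and 37.2, 36.8 and 40.4 in control libraries (log2 0.58 ± 0.20, limma adjusted p = 0.0708, and 0.0425 with the replicate block, which called it higher). Cyc1, the heme-bearing cytochrome c1, had 63.1, 49.9 and 48.6 FPKM in vector and 40.4, 31.9 and 37.2 in control libraries (log2 0.54 ± 0.21, adjusted p = 0.0896). Both were apart in all 6 libraries, and neither passed without the block.

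In complex IV, 2 of 15 rose and all 15 were positive (median 0.47). Ndufa4, once counted with complex I and now known as a complex IV subunit, had 69.3, 87.4 and 73.9 FPKM in vector and 55.2, 48.9 and 51.7 in control libraries (log2 0.55 ± 0.16, limma adjusted p = 0.0392). Its groups did not overlap. Cox6c2 was the other call (log2 1.18 ± 0.28, adjusted p = 0.0246), on the few fragments given above. The abundant Cox6a1 had 685, 703 and 618 FPKM in vector and 439, 421 and 396 in control libraries, also with no overlap.

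In complex V, 2 of 17 rose and all 17 were positive (median 0.40). Atp5e, the epsilon subunit of the central stalk, had 92.1, 71.2 and 67.8 FPKM in vector and 51.8, 40.5 and 42.5 in control libraries (log2 0.76 ± 0.20, limma adjusted p = 0.0331). Atp5g2, of the c-ring, had 74.3, 77.7 and 55.6 FPKM in vector and 48.6, 47.9 and 41.1 in control libraries (log2 0.57 ± 0.17, adjusted p = 0.0455). Both were higher in all vector libraries. The catalytic subunit Atp5b had 303, 298 and 294 FPKM in vector and 238, 244 and 251 in control libraries. Of the assembly factors 1 of 8 rose, Ndufaf8, with 17.2, 18.0 and 19.2 FPKM in vector and 13.5, 7.06 and 9.36 in control libraries (log2 0.84 ± 0.25, adjusted p = 0.0423).

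**Figure D4:**
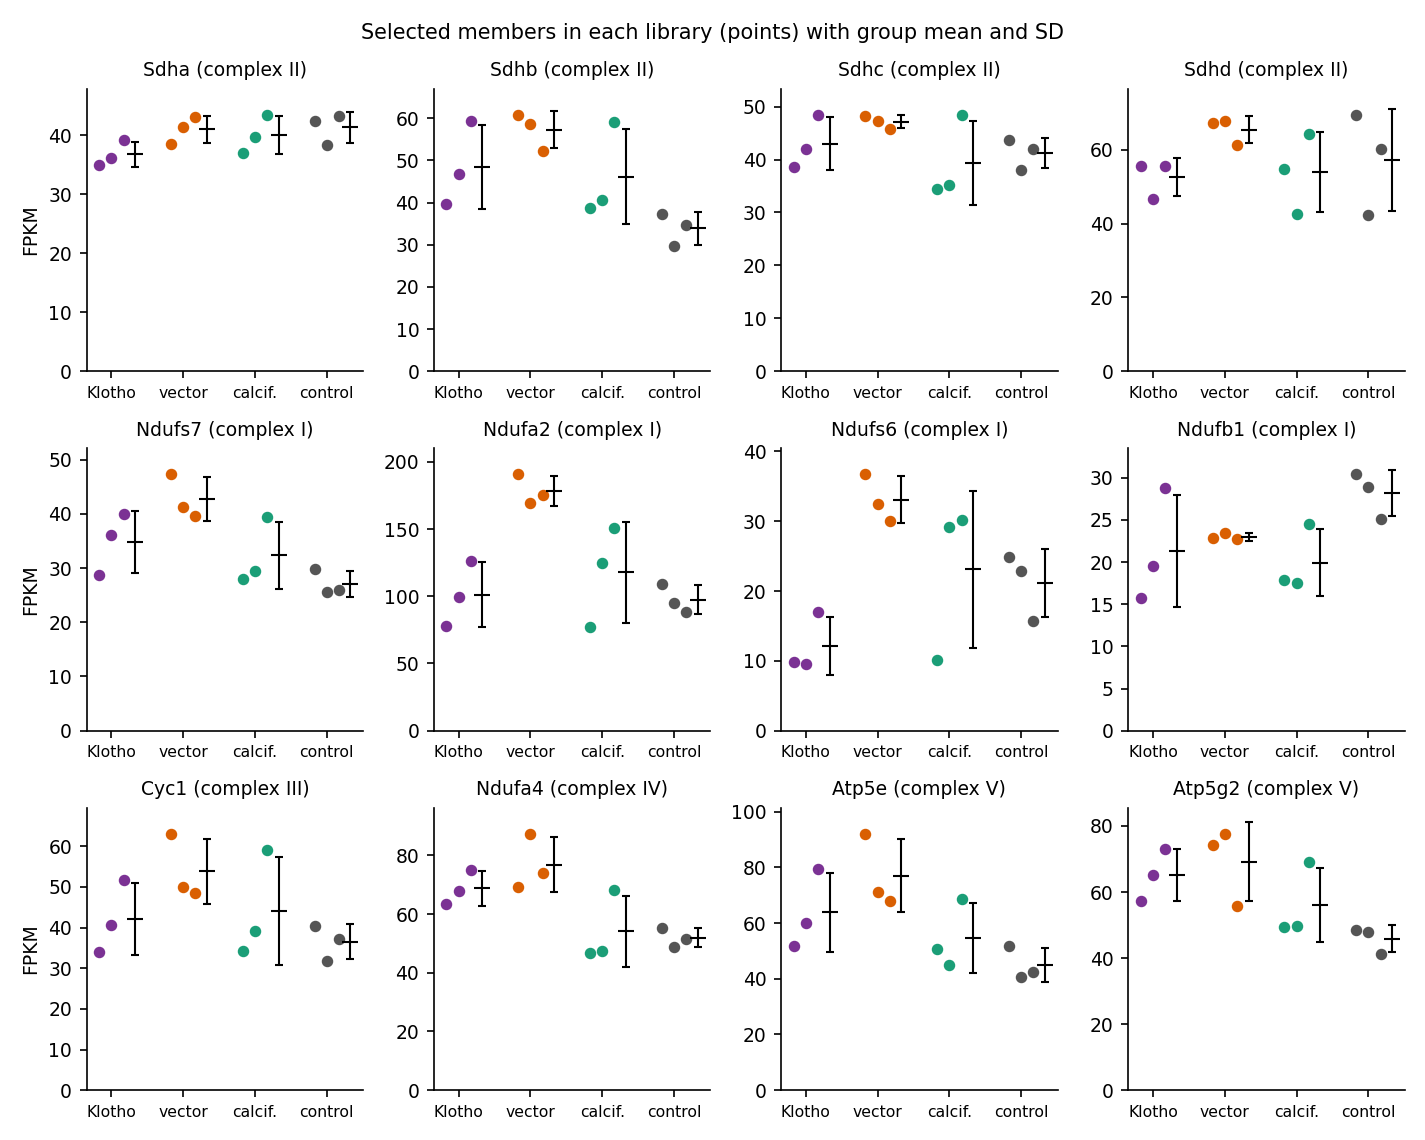
FPKM of 12 members in each library (points), with the group mean and SD (bars), in the order Klotho, vector, calcification and control. Sdha overlaps between groups, Sdhb and Ndufa2 lie higher in all vector than in all control libraries, and Ndufs6 has its lowest group mean in the libraries labelled Klotho.

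These calls depended on the fit. With the replicate block, which pairs the libraries of all 4 groups by number, all 10 were called among 23 higher members. There 15.8% of all genes were called higher. With replicates 2 and 3 alone 7 members were called, 3 of them among the 10, where 9.19% of all genes were. With GC content and length corrected, the median was 0.16 and 3 members were called, where 5.21% of all genes were. Ndufa4 (0.48 ± 0.12, limma adjusted p = 0.0410) and the core subunit Ndufs1 (0.45 ± 0.11, adjusted p = 0.0473) rose, and Ndufb1 fell by 0.72 ± 0.14 (adjusted p = 0.0189). By complex the corrected medians were 0.17, 0.06, 0.15, 0.16 and 0.22 for I to V and 0.26 for the assembly factors, and 75 of 91 members were positive. With the block and the correction together 9 rose and 1 fell, where 19.6% of all genes were called. Ndufa2, Ndufb5, Sdhb, Ndufa4, Cox6c2 and Atp5e of the 10 were among the 9, and the 1 that fell was Ndufb1.

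Split by exon length, the members' median in vector against control was above that of all tested genes in each of 4 bins. Among genes under 1000 bases the median fold change of vector against control was 0.49 for 22 members and 0.38 for all genes. It was 0.45 for 36 members and 0.33 for all genes between 1000 and 2000 bases, and 0.33 for 23 members and 0.17 for all genes between 2000 and 4000 bases. Above 4000 bases it was 0.24 for 10 members, too few for a trend, and -0.13 for all genes. Across all 10733 genes with a length, fold change and log2 length had a correlation of -0.43, and across the 91 members -0.29. These are given as a description, since genes share their libraries. In calcification against control the members' median was below that of all genes in each bin under 4000 bases (0.06 against 0.10, 0.04 against 0.10 and 0.01 against 0.07). In Klotho against control (0.02 against 0.18) and Klotho against calcification (-0.10 against 0.05) it was below only under 1000 bases. In Klotho against vector it was below in every bin.

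**Figure D5:**
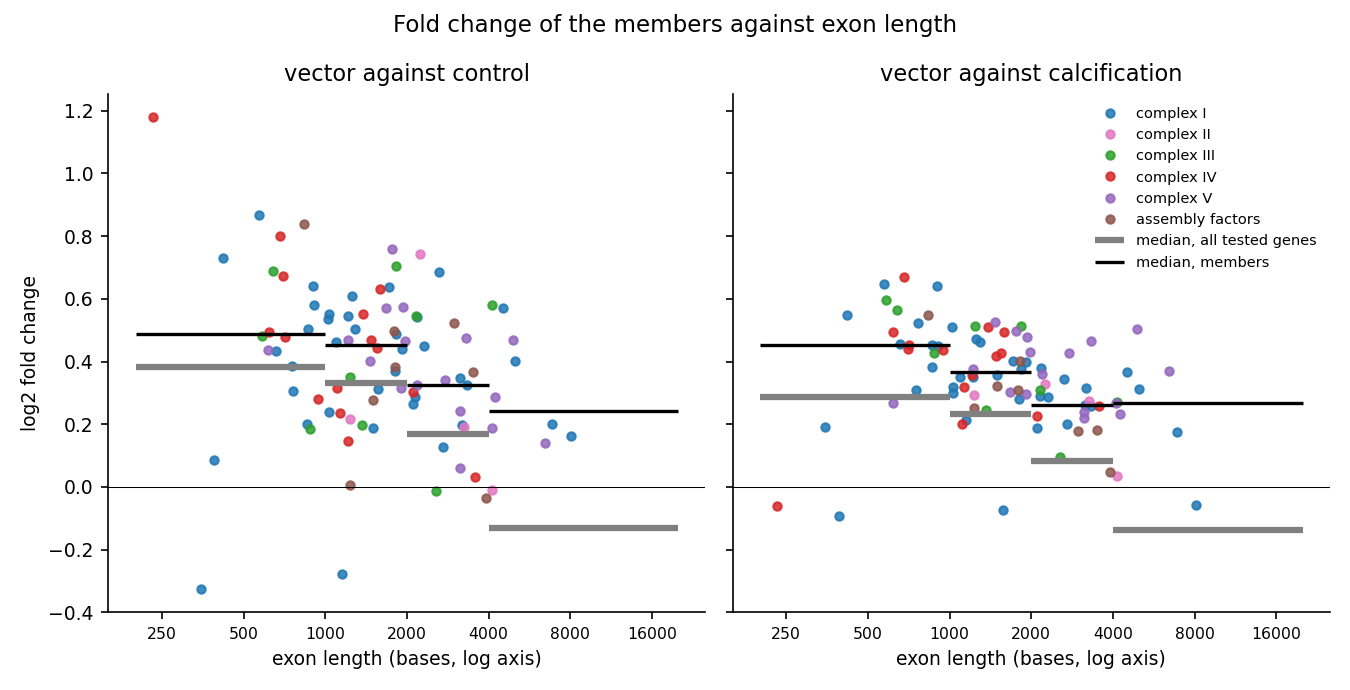
Log2 fold change against exon length (log axis, bases) for the tested members, in vector against control and vector against calcification. The thick grey line is the median of all tested genes in 4 length bins and the thin black line that of the members, which lies above it in every bin (0.49 against 0.38 under 1000 bases in vector against control).

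Vector and calcification cells had the same medium and differed in the stated empty virus, so far as the labels tell. No member and no gene (0%) passed limma, and limma-voom called no member. At an unadjusted p under 0.05 there were 24 members, 26.4% of them against 14.1% of all genes. The median was 0.35 for the members and -0.003 for all genes, 87 of 91 members were positive, and 20 lay wholly above, where 6.11% of genes did. With GC and length corrected the median was 0.22 and 84 members were positive. By complex it ran from 0.28 (II and the assembly factors) to 0.43 (III and IV). The smallest p belonged to Ndufa4, with 69.3, 87.4 and 73.9 FPKM in vector and 46.8, 47.6 and 68.2 in calcification libraries (log2 0.51 ± 0.16, limma adjusted p = 0.294). Uqcr10, of complex III, stood at 0.60 ± 0.22 (adjusted p = 0.314) and Ndufa2 at 0.65 ± 0.23 (adjusted p = 0.313). Sdhc (0.27), Atp5g3 (0.36) and Ndufaf3 (0.40) had the smallest p of complexes II and V and of the assembly factors. In Ndufa2 the calcification libraries, at 77.3, 125 and 151 FPKM, were all under the lowest vector value of 169.

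The libraries labelled Klotho against vector asked what the Klotho virus did beyond the empty one. No member and no gene (0%) passed limma, limma-voom called no member, and 16 members had an unadjusted p under 0.05, 17.6% of them against 14.1% of all genes. The median was -0.23, against -0.01 for all genes, only 9 of 91 members were positive, and 20 lay wholly below, where 10.4% of genes did. The complexes were close to each other, between -0.25 (IV) and -0.18 (III). With GC and length corrected the median was -0.12 and 18 were positive. Without replicate 1 of the libraries labelled Klotho it was -0.13 with 21 positive, and without their replicate 3 it was -0.34 with 5 positive. This comparison shares the vector libraries with the one before, so the opposite signs are not independent.

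Ndufs6, a zinc-binding accessory subunit of complex I, had the largest difference by this contrast. It was at 9.86, 9.53 and 17.0 FPKM in the libraries labelled Klotho and 36.8, 32.5 and 30.1 in vector libraries (log2 -1.42 ± 0.36, limma adjusted p = 0.222). Calcification libraries had 10.1, 29.1 and 30.1 FPKM and control libraries 24.9, 22.9 and 15.7, so replicate 1 of calcification was as low as the libraries labelled Klotho. Uqcr11, the smallest complex III subunit, had 39.4, 53.5 and 70.4 FPKM in the libraries labelled Klotho and 124, 92.4 and 93.0 in vector libraries (log2 -0.93 ± 0.30, adjusted p = 0.252). Cox5b of complex IV had 20.5, 28.9 and 38.9 FPKM in the libraries labelled Klotho and 59.4, 45.0 and 47.4 in vector libraries (log2 -0.80 ± 0.25, adjusted p = 0.248). The 3 genes were apart in all 6 libraries and none passed the test. Sdhd (-0.32), Atp5k (-0.53) and Ndufaf8 (-0.74) had the smallest p of the remaining complexes and of the assembly factors, and did not pass either.

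The libraries labelled Klotho against control gave 0 member calls by limma and limma-voom, where 0.772% of all genes were called by limma. At an unadjusted p under 0.05 there were 10 members, where 14.9% of all genes were. The median was 0.13, against 0.03 for all genes, 67 of 91 were positive, and 16 lay wholly above and 2 wholly below, where 11% and 8.83% of genes did. Complex II was the only complex with a negative median, -0.02, and complex I had the highest, 0.18. Ndufb5 had 8.16, 7.68 and 9.16 FPKM in the libraries labelled Klotho and 5.57, 6.77 and 6.24 in control libraries, apart (log2 0.38 ± 0.12, limma adjusted p = 0.183). Atp5g2 had 57.3, 65.1 and 73.1 FPKM in the libraries labelled Klotho and 48.6, 47.9 and 41.1 in control libraries, apart as well (log2 0.49 ± 0.17, adjusted p = 0.227). Sdhb (0.49), Uqcrc1 (0.41), Cox6c2 (0.93) and Ndufaf5 (0.26) had the smallest p of their groups and did not pass. With GC and length corrected the members' median was 0.03. It was 0.01, with 46 of 91 positive, without replicate 3 of the libraries labelled Klotho, 0.26, with 78 positive, without their replicate 1, and 0.20 and 0.08 without control replicates 1 and 2.

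The libraries labelled Klotho against calcification gave 0 calls by both tools (0% of all genes), and 6 members had an unadjusted p under 0.05, where 3.13% of all genes did. The median was 0.11, against -0.02 for all genes, 62 of 91 were positive, and 6 lay wholly above and 0 wholly below, where 3.2% and 4.26% of genes did. Uqcrh, the hinge subunit of complex III, stood at 0.49 ± 0.19 (limma adjusted p = 1.00), and Ndufb5 at 0.29, Sdha at -0.12, Cox7b at 0.27, Atp5mpl at 0.30 and Ndufaf7 at -0.19 had the smallest p elsewhere. With GC and length corrected the members' median was 0.10 and 61 were positive. Without replicate 3 of the libraries labelled Klotho the members' median was -0.01 with 44 positive, and without their replicate 1 it was 0.22. It was 0.02, 0.05 and 0.24 without calcification replicates 1, 2 and 3. Over all 4 groups together the F test called 0 members with limma and 0 with limma-voom, where limma called 1% of all genes, and 24 members had an unadjusted p under 0.05, 26.4% against 23.4% of all genes.

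Other gene lists of mitochondria and of short housekeeping genes were set beside the members. In vector against control the 13 transcripts of the mitochondrial genome, core subunits of complexes I, III, IV and V, had the opposite sign. None was positive, the median was -0.62, and 4 fell (mt-Nd3, mt-Nd5, mt-Nd6 and mt-Atp6), where 7.98% of all tested genes did. Changes ran from -1.29 (mt-Atp8, averaging 1.17 FPKM) to -0.03 (mt-Co2). Among the 4, mt-Nd3 averaged 2.25 FPKM, mt-Atp6 14.4, mt-Nd6 373 and mt-Nd5 391, beside 2857 for mt-Co1. The 13 transcripts' share of total FPKM was 2.26% to 2.66% in the libraries labelled Klotho and 1.19% to 1.72% in vector libraries. It was 1.89% to 2.0% in calcification and 2.06% to 2.75% in control libraries. Set against vector, the libraries labelled Klotho had 12 of the 13 positive, with a median of 0.70 and a lowest limma adjusted p of 0.17. Whether these transcripts reach a library depends on how RNA was selected, which the labels do not state.

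Genes of other complexes shifted with the members. In vector against control, where 7.44% of all tested genes were higher and 7.98% lower, the mitochondrial ribosomal proteins had a median of 0.46. Of these, 74 of 77 were positive, 20 higher and 0 lower. The list of cytosolic ribosomal proteins was taken by symbol, Rpl or Rps followed by a number. That pattern also matches the symbols of ribosomal S6 kinases, which are not ribosomal proteins, and these were not taken out. This list had a median of 0.59, with 83 of 88 positive, 35 higher and 1 lower. Proteasome subunits had 0.26, with 33 of 36 positive, 4 higher and 1 lower. Their medians in the libraries labelled Klotho against vector were -0.17, -0.22 and -0.19, beside -0.23 for the respiratory chain genes. Other assembly factors of the respiratory complexes had a median of 0.19 in vector against control (23 of 30 positive, Uqcc3 higher). The 7 genes of cytochrome c and carriers had 0.20, all positive and none called. Regulators of mitochondrial biogenesis had -0.11, with 3 of 10 positive and Tfb2m, a mitochondrial transcription factor, lower. Their changes ran from -0.63 (Tfb2m) to 0.57 (Esrra, limma adjusted p = 0.0529). The coactivators Ppargc1a and Ppargc1b were under the filter, at 0.025 and 0.004 FPKM. In the other 5 comparisons no member of these lists passed.

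The paralogs left out behaved otherwise. Ndufa4l2, which low oxygen is known to induce, had 4.04, 3.19 and 2.74 FPKM in the libraries labelled Klotho, 9.56, 4.25 and 1.92 in vector, 4.61, 2.91 and 2.95 in calcification, and 68.1, 25.3 and 32.2 in control libraries. All 9 libraries in calcium medium lay below all control libraries. The log2 fold change against control was -3.19 in the libraries labelled Klotho (limma adjusted p = 0.0074), -2.85 in vector (adjusted p = 0.0076) and -3.15 in calcification (adjusted p = 0.0083). These 3 values share the control libraries. Its paralog Ndufa4 had 63.4, 68.0 and 75.1 FPKM in the libraries labelled Klotho and the vector, calcification and control values given above. Cox4i2, the hypoxia and lung isoform of Cox4i1, averaged between 3.04 FPKM in calcification and 3.63 FPKM in control libraries and was not called. Atpif1, the inhibitor of the ATP synthase, averaged 26.0 ± 5.91 FPKM in the libraries labelled Klotho, 28.6 ± 4.15 in vector, 20.6 ± 4.03 in calcification and 22.3 ± 1.92 in control libraries (SD, n = 3 each).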

How the data were processed

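RNA from primary mouse aortic smooth muscle cells, extracted with RNeasy columns, was sequenced in 12 libraries, 3 in each of 4 groups. The authors deposited 1 table of FPKM values per gene. The unit is named from the values, since the header does not give it. The submitters' processing notes name CASAVA 1.8.2, STAR 2.4, DESeq2 3.12 and the builds GRCm38 and GRCm39. For the counting tool, strand setting and annotation the sources give no statement. The deposited FPKM values times exon-union length (GENCODE, GRCm38) gave whole fragments within 0.05 for 98.1% to 98.4% of values under 100 fragments. limma-voom was run on those fragments with a TMM scaling.

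The main test was limma 3.58.1 (R 4.3.3) with a trend on log2(FPKM + 1), over 10758 genes averaging at least 1 FPKM. All 12 libraries entered 1 fit with 6 contrasts and an F test, and p-values were Benjamini-Hochberg adjusted over all tested genes. Fold changes on this scale understate the change of low genes. Tables and plots used Python 3.11.15 with pandas 2.3.3 and numpy 2.4.6. The scripts were tested on simulated data. Members and gene lists were chosen with earlier results of these data known. Genes named are, per complex and comparison, up to 3 called members or the member with the smallest p. Also named are Sdha to Sdhd, Cyc1, the 2 most abundant members of each complex, the isoform families, the members next to the filter, and Ndufa4l2 and Cox4i2. Ndufb5 in vector against control and the genes called under corrections were named after their values were seen, to complete the counts.

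No replicates were merged, since all pairs differed by more than counting noise. Deviations of same-numbered libraries had correlations of 0.20 to 0.51 in calcification against control and 0.40 to 0.54 in vector against control. They were 0.24 to 0.57 in Klotho against control and 0.57 to 0.73 in Klotho against calcification. In vector against calcification (-0.06 to 0.50) and Klotho against vector (0.01 to 0.52) not every correlation was over 0.1. Whether the numbers pair the libraries is thus uncertain. The main fit left the numbers out, and the replicate block, which pairs the libraries of all 4 groups by number, was an alternative. Alternatives were other pseudocounts, filters and scalings, limma-voom, the replicate block, corrections of fold change for GC content and length (natural splines with 4 degrees of freedom), length alone, fits on fewer libraries, and leaving out each library. Intervals on fragment counts cover counting error only.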

Additional observations from a re-analysis of the deposited data

How the results depend on the processing

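Medians over the 91 tested members and counts of called members were recomputed under each setting listed among the methods. Each count stands with the share of all tested genes called in the same fit. In vector against control, 10 members were called in the reported fit (15.4%), 0 with no filter (1.51% of 25745 genes), 6 with upper-quartile scaling (15.5%), 23 with the replicate block (29.8%), 3 with GC and length corrected (5.21%), 2 with length alone corrected (8.53%), and 21 with the 6 libraries alone (14.4%). Leaving out single libraries gave 0 to 17 calls: 0 without vector replicate 1, vector replicate 2, control replicate 2 or control replicate 3 (1.39% to 2.18%), 5 without replicate 2 of the libraries labelled Klotho (10.4%), 6 without vector replicate 3 (10.5%) or calcification replicate 2 (11.5%), 16 without control replicate 1 (17.4%) and 17 without calcification replicate 3 (17.3%). The median, 0.40, was 0.16 with GC and length corrected, with and without the block, and 0.16 with length alone, and stayed positive throughout (0.16 to 0.48).

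In calcification against control, 0 calls became 1 with a pseudocount of 0.1 (0.669% of all genes), 1 with the replicate block (Cox6c2; 3.91%) and 2 with the block and GC and length correction (Cox6c2 higher, Ndufb1 lower; 5.25%). Klotho against control gave 2 with the block and that correction (Ndufb1 and Ndufb3 lower; 7.43%). The F test gave 1 with the block (Cox6c2; 10.1%), 4 with the block and the correction (Ndufb1, Cox6c2, Ndufb5 and Ndufa4; 8.03%), and 0 to 1 when single libraries were left out, the 1 being without calcification replicate 1 (1.43%). The causes were not tested. The block changed no other count of called members.

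Over the alternatives the median ran from 0.21 to 0.50 in vector against calcification, from -0.34 to -0.10 in Klotho against vector, and from 0.01 to 0.29 in Klotho against control. Its sign was not kept in Klotho against calcification (-0.01 to 0.24, negative without Klotho replicate 3) or calcification against control (-0.10 to 0.20, lowest without calcification replicate 3). No single named member reversed a call. Depth limits the members with few fragments most, among them Cox6c2 (0 to 13 a library), Ndufs6b (5 to 22) and Cox6a2 (4 to 37).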
